A study of Arabidopsis with 26 samples.

Results

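SWI/SNF complexes are chromatin remodellers that use the energy of ATP to slide or evict nucleosomes. Arabidopsis builds them around alternative ATPases, of which BRM (BRAHMA), SYD (SPLAYED) and MINU2 (MINUSCULE2) were tagged here. From work on the purified complexes, MINU2 is known to sit in a class with SWI3A and BSH, BRM in a class with SWI3C, and SYD in a class with SWI3D, while SWP73 and BCL7 proteins are shared between classes. The regions described here are those where all 3 ATPases had a peak and, by list name, MINU2 ranked far above the mean of BRM and SYD. BRM or SYD alone could still rank near MINU2 in some of them.

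Peaks on chromosomes 1 to 5 from 6 lists, 2 named MINU2-GFP minu2-1, 2 named BRM-GFP brm-1 and replicates 3 and 4 of those named SYD-N-GFP syd-5, were merged into 21697 regions wherever they overlapped by at least 1 bp. A peak of every one of the 6 lists lay in 8345 regions. Of these, 2229 also had a peak in all 26 lists of the series and were dropped, which left 6116 three-ATPase regions. Each region was scored in each list by the percentile, from 0 to 100, of its best −log10 q among the peaks of that list. The 1322 MINU2-strongest regions were chosen by these −log10 q scores: their mean MINU2 score exceeded the mean of their 4 BRM and SYD scores by at least 30, which 21.6% of the three-ATPase regions did. In the opposite direction, 1506 regions (24.6%) had a gap of −30 or less and are called BRM/SYD-strongest below, and 3288 lay between.

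All libraries are ChIP-seq of 14-day-old seedlings, in which a fusion to green fluorescent protein (GFP) was precipitated with an antibody against GFP. The 26 lists, 1 per library, fall into 15 groups by sample label. In each line apart from SWI3C-GFP, for which the labels give no mutation, the fusion is in a background named for a mutant allele of the same gene (brm-1, syd-5, minu2-1, swi3a-1, swi3d-1, bsh, swp73a-2, swp73b-1, bcl7a-1, bcl7b-1). Some lines carry a further mutant allele in their label: a BRM fusion in brm-1 syd-5, a SYD fusion in syd-5 brm-1, another in syd-5 swi3d-1, and a SWI3D fusion in swi3d-1 syd-5. The promoter behind each fusion and the number of transgenic lines are not given in the sources used here.

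Label and list name state different lines for 19 of the 26 libraries, and this touches every result below. The rule reads list names. Its BRM lists and its SYD lists carry the same line in both records (SYD-GFP syd-5 replicates 1 and 2 by label), but the lists named MINU2-GFP minu2-1 belong to samples labelled SYD-GFP syd-5 replicates 3 and 4. By label, therefore, the regions are those where replicates 3 and 4 of SYD-GFP syd-5 ranked above replicates 1 and 2 and above BRM. The list named BSH-GFP bsh is labelled SYD-GFP syd-5 brm-1, and that named SWI3A-GFP swi3a-3 is labelled SWP73B-GFP swp73b-1. In 4 lists every peak name holds the text "syd-5"; all 4 are named SYD-N-GFP syd-5, alone or with swi3d-1, and 0 are labelled SYD-GFP. Lists are called by their list names below, with the label where it bears on a result. A further split is that 12 lists hold peaks on the organelle genomes and 14 hold none. Both MINU2-named lists are of the first set and all 4 BRM and SYD lists of the rule are of the second, so in the selection itself the ATPase and the set cannot be told apart. Read numbers are not in peak lists, so depth is unknown, and the lists held between 4383 and 21329 nuclear peaks.

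The values that chose the regions are given as a description. In the MINU2-strongest regions the median score was 86.2 and 87.0 in the 2 MINU2-named lists, 37.0 and 34.1 in the BRM lists, and 33.9 and 33.1 in the SYD lists. The authors' fold enrichment over background had a median of 4.91 and 5.14 in the MINU2-named lists, against 3.32 and 3.40 over all three-ATPase regions in the same lists. In the BRM lists the medians were 2.42 and 2.32 against 3.20 and 3.10, and in the SYD lists 2.59 and 2.63 against 3.32 and 3.35. The BRM and SYD peaks there were thus called but weak: the −log10 q was at least 10 in all 4 lists for 59 of 1322 regions (4.46%), against 44.2% of all three-ATPase regions. In both MINU2-named lists, a condition on fewer lists, it was at least 10 for 1316 regions (99.5%), against 60.3% of all. The gap ran from 30.0 to 91.5, with a median of 45.7. In 1293 regions (97.8%) both MINU2 scores were above all 4 others. Between the 2 MINU2-named lists the score of a region differed by 3.54 at the median, and between replicates by 10.1 for BRM and 9.88 for SYD. Over all three-ATPase regions these medians were 7.80, 6.38 and 7.12, and in the BRM/SYD-strongest the order was reversed, with 9.77, 3.91 and 4.65, so they move with the scores that chose the regions.

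**Figure D1:**
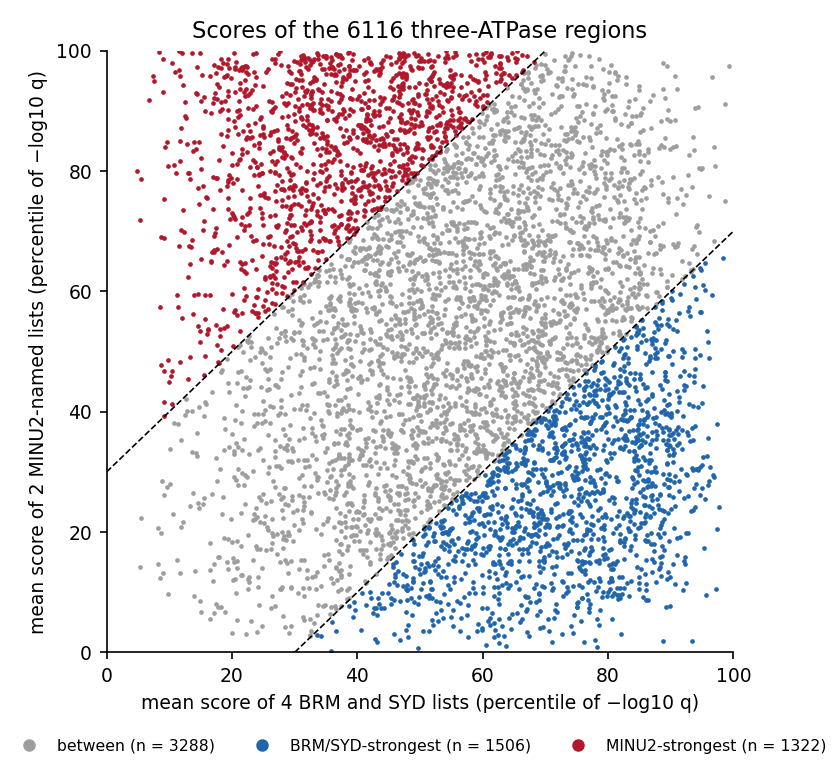
Each point is 1 of the 6116 three-ATPase regions, with the mean score of the 4 BRM and SYD lists on the x axis and of the 2 MINU2-named lists on the y axis, both as percentiles of −log10 q from 0 to 100. Dashed lines mark gaps of 30 and −30; the 1322 MINU2-strongest regions lie above the upper line, the 1506 BRM/SYD-strongest below the lower, and the cloud has no break at either line.

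The largest gap, 91.5, belonged to a region on chromosome 1 (chr1:6027065-6028019, positions as deposited, counted from 1) whose MINU2 summit lay 60 bp from an end of AT1G17520. Its fold enrichment was 8.20 and 8.36 in the MINU2-named lists, 1.44 and 1.81 in the BRM lists, and 1.90 and 2.39 in the SYD lists. In lists outside the rule it reached 10.2 in the SWI3A-named list, 8.57 in the BSH-named list, 7.43 in the SWP73B-named list, 10.02 in the BCL7A-named list and 9.82 in the BCL7B-named list, and no peak was called in the SWI3C-named or SWP73A-named list. The lists named MINU2, SWI3A, BSH, SWP73B, BCL7A and BCL7B were thus high at this region, and the BRM and SYD lists low.

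The highest MINU2 enrichment among the 10 regions with the largest gap was at AT4G23330 (chr4:12191710-12192582), with 15.2 and 15.7 in the MINU2-named lists, 2.34 and 1.93 in the BRM lists, and 1.81 and 1.91 in the SYD lists. The same region had 19.9 in the SWI3A-named list and 18.1 in the BSH-named list. Others of the 10 lay at DPMS1 (gap 89.6; dolichol phosphate mannose synthase, which makes a sugar donor for glycoproteins), RIN1 (87.5; a RuvB-like ATPase that is also part of other remodelling complexes), SKIP6 (87.5; an F-box protein that binds SKP1) and EMB2804 (85.5; named for an embryo-defective mutant). AT5G60280, the lectin receptor kinase LecRK-I.8, had a gap of 88.4, AT3G60860 87.5, AT4G18372 86.0 and AT3G52100 85.3. All 10 had a peak in the lists named SWI3A and BSH, with a mean rank percentile there of at least 95.3.

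At the threshold the regions formed a continuum. Just inside were regions at AT1G19980, AT3G10540 and AT3G14330, each with a gap of 30.0. Just outside were AT1G34570 (29.992), PIE1 (29.986), which encodes the ATPase of the SWR1 remodelling complex, and EDR1 (29.973), a protein kinase of disease resistance.

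The 20 lists outside the 6 scored ones took part in the choice only through the regions that were dropped. They were used to ask whether other subunits rank these regions as MINU2 does. In each list the 6116 three-ATPase regions were ranked by their best −log10 q, those without a peak lowest, so that the mean rank percentile of all of them is 50. The MINU2-strongest regions stood at 81.5 in the SWI3A-named list and 80.6 in the BSH-named list. Each of the 1322 had a peak in both lists, where 96% and 99.1% of all three-ATPase regions did. Their median fold enrichment was 6.11 in the SWI3A-named list, against 3.75 over all three-ATPase regions, and 5.56 in the BSH-named list, against 3.69.

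In lists named for BRM, SYD, SWI3C and SWI3D the same regions ranked low. SYD-N-GFP syd-5 replicates 1 and 2 gave 28.3 and 27.8. The lists of BRM in the brm-1 syd-5 line gave 29.7 and 30.1, so the low rank of BRM was also there in the line named for the syd-5 allele. SYD-N-GFP syd-5 brm-1 gave 35.5 in both replicates. SWI3D-GFP swi3d-1 gave 30.8, 29.9 and 29.9, and the lists of SWI3D with syd-5 added gave 35.6 and 36.3. SWI3C-GFP gave 34.6. The exceptions were both lists named SYD-N-GFP syd-5 swi3d-1, at 51.5 and 54.0, which are the smallest of the series with 5227 and 4383 peaks. Only 26.5% and 16.6% of all three-ATPase regions had a peak there, and the rest shared the lowest rank. Mean ranks in both lists thus rest mostly on whether a peak was called.

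By list name, the SWI3A and BSH lists averaged 81.1 ± 0.657 (SD, n = 2) and the lists named for BRM, SYD, SWI3C and SWI3D 35.0 ± 8.11 (SD, n = 14), and the classes did not overlap. Most of the 14 are replicates of a shared line, and the test counts each list as a unit. With lines as units its smallest possible p would be larger. The difference of 46.1 had a two-sided exact permutation p of 0.00833, the smallest that 2 against 14 lists can give, and 0.0167 after Benjamini-Hochberg adjustment over the 2 readings of the labels. The class of 14 includes further lists of BRM and SYD fusions, the proteins whose low scores chose the regions. Low ranks in those lists were favoured by the choice itself, so this p is not independent of it. Among the lists with organelle peaks, where both classes occur, the class means were 81.1 ± 0.657 (n = 2) against 32.8 ± 2.99 (n = 6), with an exact permutation p of 0.0357, again the smallest possible. These 6 lists are named for SWI3C and SWI3D, whose fusions the rule did not score. Most of the 6 are replicates of a SWI3D line, so with lines as units the smallest possible p would again be larger. List size moved with rank: the SWI3A and BSH lists held 19263 and 19631 peaks and the other class 4383 to 17283. With the 4383 strongest peaks of every list the means were 74.4 and 40.4, so the difference fell to 34.0; the classes still did not overlap, and the exact permutation p is then 0.00833 whatever the size of the difference. SWI3A and BSH have 1 list each, so without either of them the difference was 45.6 to 46.6 and the exact permutation p 0.0667, which is the smallest possible with 1 list in a class.

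By sample label the order was not the same. Libraries labelled MINU2-GFP, SWI3A-GFP and BSH-GFP averaged 32.5 ± 4.02 (SD, n = 4), and those labelled BRM, SYD, SWI3C and SWI3D fusions 44.6 ± 18.0 (SD, n = 12). The difference of −12.1 had a two-sided exact permutation p of 0.240 (0.240 after Benjamini-Hochberg adjustment over both readings), so by label the classes did not differ beyond the spread between libraries. By label the lists in which the regions scored high are of SYD-GFP syd-5, so this test does not ask whether MINU2 partners follow MINU2. The second class ran from 27.8 to 80.6, with the library whose list is named BSH the highest. Within the lists with organelle peaks the difference was −18.5 (n = 3 and 4, exact permutation p = 0.371), and within those without, −12.3 (n = 1 and 8, exact permutation p = 0.556, with 0.111 the smallest possible). The libraries labelled MINU2-GFP minu2-1, whose lists are named for SWI3D, replicate 3 of swi3d-1 and replicate 1 of swi3d-1 syd-5, ranked the regions at 29.9 and 35.6. With those 2 libraries in the place of the MINU2-named lists, the rule kept 55 of 4087 regions, and 16 of the 1322 overlapped them.

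**Figure D2:**
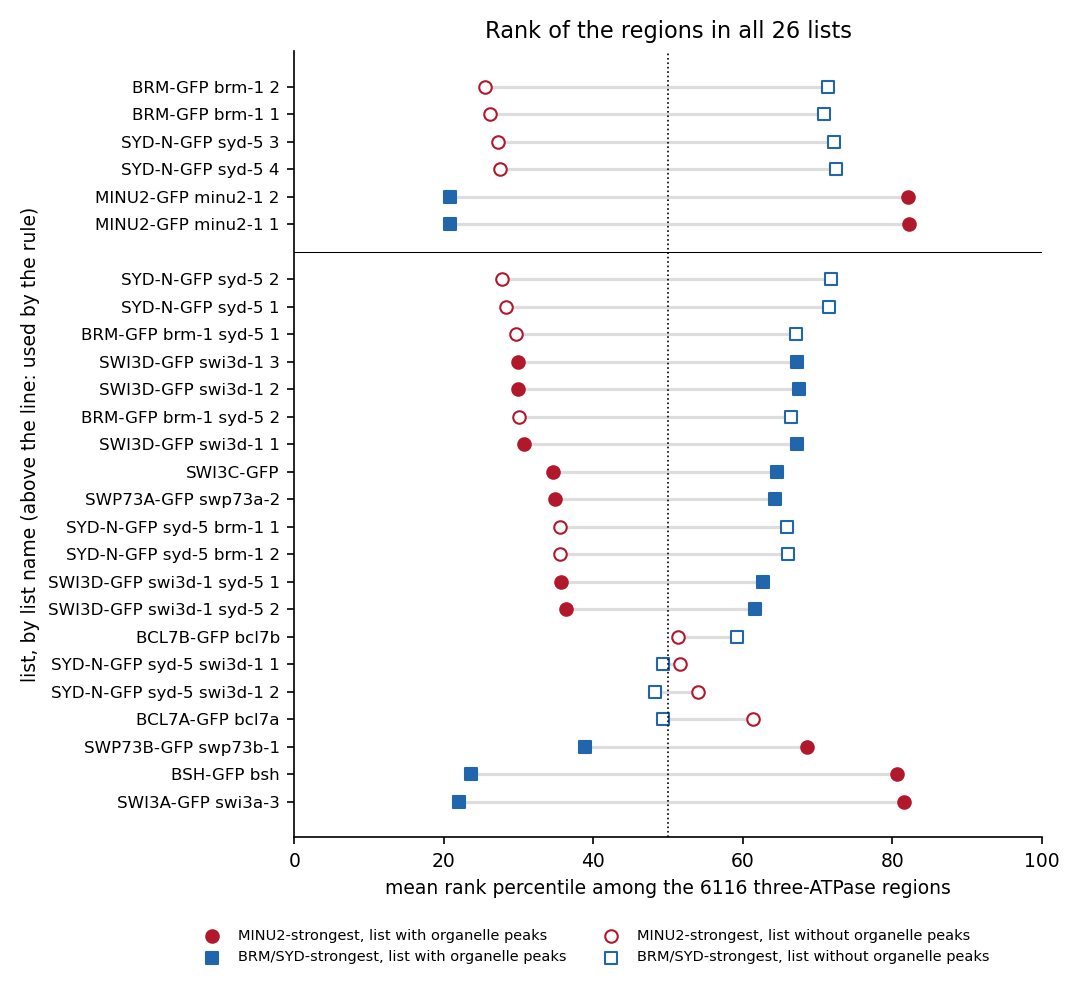
Mean rank percentile of the 1322 MINU2-strongest regions (red circles) and of the 1506 BRM/SYD-strongest regions (blue squares) in each of the 26 lists, named by list name; filled symbols are lists with organelle peaks, the dotted line is the mean of all three-ATPase regions (50), and the 6 lists above the solid line chose the regions. Below the line, red lies right of blue by a wide margin in the lists named SWI3A, BSH and SWP73B, and left of it in 14 of the 20 lists.

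Among the subunits shared between complex classes, the lists named SWP73B, BCL7A and BCL7B lay between the means of the 2 classes above, and the SWP73A-named list lay within the range of the BRM, SYD, SWI3C and SWI3D class. The SWP73B-named list ranked the regions at 68.6 and the SWP73A-named list at 34.9, and 1165 of 1322 regions (88.1%) ranked higher in the SWP73B-named list, as did 46.8% of all three-ATPase regions. The BCL7A-named list gave 61.3 and the BCL7B-named list 51.3; 945 of the 1322 (71.5%) ranked higher for BCL7A, beside 52.2% of all. Each of these names has 1 list, so these differences have no replicate check. The SWP73A-named list held 8960 peaks and the SWP73B-named list 21329. By label these 4 libraries are BCL7B-GFP bcl7b-1 (named SWP73A), SWI3D-GFP swi3d-1 (named SWP73B) and, for the lists named BCL7A and BCL7B, a SWI3D fusion in swi3d-1 syd-5.

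The lists also differed in whether a region had a peak at all. In the lists named SWP73B, BCL7A and BCL7B 1322, 1321 and 1321 of the regions had a peak, where 99.5%, 99.9% and 99.9% of all three-ATPase regions did. The SWP73A-named list held a peak in 527 regions (39.9%, Wilson 95% interval 37.3% to 42.5%), against 62.4% of all three-ATPase regions. In the SWI3C-named list it was 983 regions (74.4%) against 84.8%. The intervals cover counting error only.

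In SWI3D-GFP swi3d-1 lists 60.6%, 85.0% and 85.6% of the regions had a peak, against 79.7%, 92.3% and 92.9% of all. In the lists named for SWI3D in the syd-5 background the shares were 33.2% against 55.3% and 19.1% against 43.5%. Beside them, SYD-N-GFP syd-5 replicates 1 and 2 held 93.9% and 97.9% of the regions, against 97.6% and 99.1%, and the BRM lists of the brm-1 syd-5 line held 92.1% and 96.1%, against 96% and 98%. SYD-N-GFP syd-5 brm-1 held 87.9% and 74.1%, against 90.5% and 82.8%. In these 11 lists and in the SWI3C-named and SWP73A-named lists the share in MINU2-strongest regions was below that of all three-ATPase regions.

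The lists of SYD-N-GFP syd-5 swi3d-1 went the other way. A peak was called there in 395 regions (29.9%, Wilson 95% interval 27.5% to 32.4%) and 322 regions (24.4%, 22.1% to 26.7%), against 26.5% and 16.6% of all three-ATPase regions. In the BRM/SYD-strongest regions the shares were 25.3% and 13.3%. The peaks called in MINU2-strongest regions were not stronger than those over all three-ATPase regions. Their median fold enrichment was 2.11 against 2.15 in replicate 1 and 2.19 against 2.19 in replicate 2. By label these libraries are SWP73A-GFP swp73a-2 and SWI3D-GFP swi3d-1.

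Not every MINU2-strongest region followed SWI3A and BSH to the same degree. A rank percentile of 75 or more in both lists was found in 835 regions (63.2%), beside 20.1% of all three-ATPase regions. Both ranks were above 50 in 1222 regions (92.4%, against 42.4% of all), and both were below 50 in 21 (1.59%). The highest joint ranks were at SYP71 (a syntaxin of membrane fusion), AT4G23330, MFP1 (a filament-like protein that binds matrix attachment DNA), AT3G17450 and DRT102. At DRT102 (chr3:1346980-1347979) fold enrichment was 10.2 and 10.1 in the MINU2-named lists, 12.9 in the SWI3A-named list and 10.9 in the BSH-named list. It was 1.75 and 2.23 in the BRM lists and 3.27 and 3.05 in the SYD lists. SYP71 differed from it in BRM, with 4.12 and 4.98, while MINU2 stood at 11.0 and 11.4; its gap was 34.4 against 61.3 at DRT102.

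The regions had a peak in 6 to 19 of the 20 other lists, with a median of 15, against 17 over all three-ATPase regions. The most that the rule allows is 19, since regions with a peak in every list were dropped, and this number was reached in 106 regions (8.02%, against 18.7% of all), led by gap by the tRNA gene AT4G14345, AT5G03660 and AT5G05210. The fewest were at WCRKC2 (a thioredoxin; 6 lists), the long non-coding RNA gene AT2G09650 (6 lists) and AGO2 (7 lists), an Argonaute protein of small-RNA silencing. At AGO2 (chr1:11181495-11182235) fold enrichment was 5.004 and 4.72 in the MINU2-named lists, 4.68 in the SWI3A-named list, 4.47 in the BSH-named list and 3.85 in the SWP73B-named list. In the BRM lists it was 1.68 and 1.45 and in the SYD lists 2.00 and 2.03. No peak was called there in any list named for SWI3C or SWI3D.

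The rule pooled BRM and SYD, and some regions leaned to 1 of them, which was not particular to the MINU2-strongest regions. The mean BRM score exceeded the mean SYD score by 20 or more in 280 regions (21.2%, against 23.0% of all three-ATPase regions), and SYD exceeded BRM by as much in 258 (19.5%, against 15.9%). In lists outside the rule, the regions that leaned to BRM stood at 43.1 and 43.4 in the BRM lists of the brm-1 syd-5 line, and at 19.8 and 18.8 in SYD-N-GFP syd-5 replicates 1 and 2. Those that leaned to SYD stood at 24.0 and 23.5 in the BRM lists and at 44.9 and 45.4 in the SYD lists. The SWI3D-GFP swi3d-1 lists followed SYD, with 45.2 to 46.3 for regions leaning to SYD and 21.7 to 22.9 for regions leaning to BRM. The SWI3C-named list gave 41.9 for regions leaning to SYD and 35.4 for regions leaning to BRM. Both kinds of region stood high in the lists named for MINU2 partners: 83.1 and 82.1 in the SWI3A-named list, and 81.3 and 83.4 in the BSH-named list, for BRM-leaning and SYD-leaning regions in that order.

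The shape of the peaks is described on the lists that chose the regions. The merged regions were narrow, with a median width of 956 bp, against 1204 bp over all three-ATPase regions and 1872.5 bp in the BRM/SYD-strongest. The strongest MINU2 peak of a region had a median width of 774.5 and 808 bp in the 2 lists, against 661.5 and 714 bp over all. BRM peaks were narrower there than over all three-ATPase regions, at 582.5 and 559.5 bp against 884 and 862.5 bp, and SYD peaks too, at 485 and 460 bp against 680 and 643 bp. The widest nuclear peak of a list measured 3838 to 3877 bp in lists with organelle peaks, the MINU2-named ones among them, and 5697 to 22566 bp in the others; what this contributes to the widths was not tested.

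**Figure D3:**
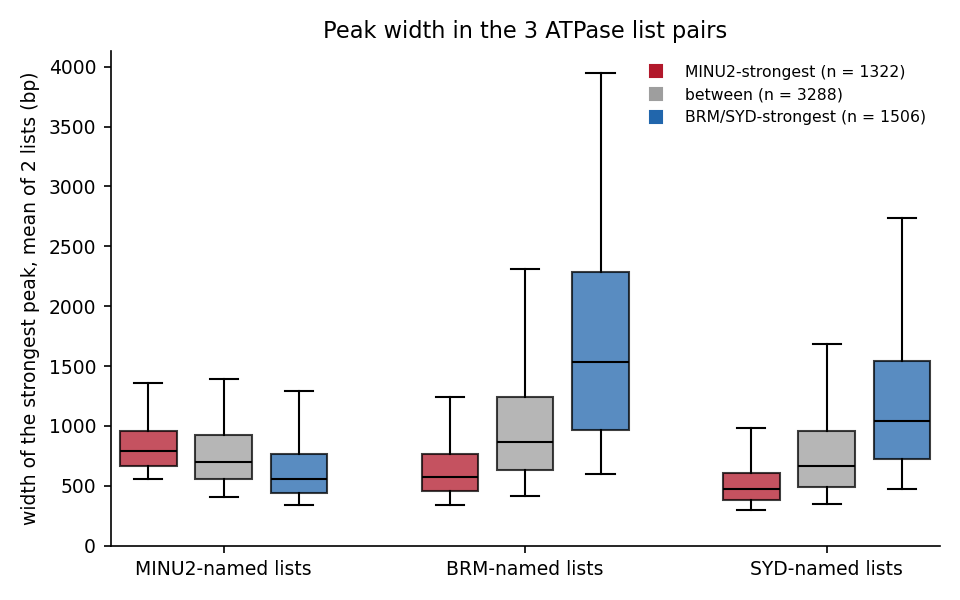
Width in bp of the strongest peak of each region, as the mean of the 2 lists of an ATPase, for MINU2-strongest (red), intermediate (grey) and BRM/SYD-strongest regions (blue). Boxes span the quartiles with the median as a line, whiskers reach the 5th and 95th percentiles; MINU2 peaks are widest in the red set, and BRM and SYD peaks narrowest.

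The summits of MINU2 lay close to those of SWI3A and BSH. In the MINU2-strongest regions the median distance between the summits of the 2 MINU2-named lists was 33 bp. From MINU2 to the SWI3A summit it was 29 and 33 bp, and to the BSH summit 31 and 33 bp, so these distances were no larger than between MINU2 replicates. Over all three-ATPase regions the MINU2 replicates were 49 bp apart and the MINU2 and SWI3A summits 43 and 49 bp. The SYD summit lay 74 to 79 bp from that of MINU2 over the 4 pairs of lists, and the BRM summit 131 to 132.5 bp. Between replicates the summits of BRM were 60 bp apart and those of SYD 57 bp. BRM and SYD summits were 163 to 172 bp from each other, so the MINU2 and SYD summits were nearer to each other than either was to the BRM summit.

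Position relative to genes was not used by the rule. In the MINU2-strongest regions the MINU2 summit lay a median of 78 bp from the nearest end of a protein-coding gene, against 136.5 bp over all three-ATPase regions and 267.5 bp in the BRM/SYD-strongest. A gene end was within 200 bp in 1111 of 1322 regions (84.0%), against 63.1% of all three-ATPase regions and 41.0% of the BRM/SYD-strongest. Within 500 bp the share was 94.9% (Wilson 95% interval 93.6% to 96.0%), against 83.3% (82.4% to 84.2%) and 65.9% (63.4% to 68.2%). The summit lay inside a protein-coding gene in 71.8% of the regions, against 63.5% and 52.0%. The gene table used holds no strand, so a gene end can be its start or its end.

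Summits from lists outside the rule gave the same picture. The SWI3A summit was within 200 bp of a gene end in 84.2% of MINU2-strongest regions, against 66.1% of all three-ATPase regions with such a peak, and the BSH summit in 83.6%, against 63.3%. BRM summits in the same regions lay deeper: 52.2% were within 200 bp, at a median of 192.5 bp, and 83.7% were inside a gene. SYD summits were within 200 bp in 79.9%, and 53.9% were inside a gene. The BRM/SYD-strongest regions were farther from gene ends by the summits of all 3 ATPases, with medians of 385 bp for BRM and 348.5 bp for SYD.

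**Figure D4:**
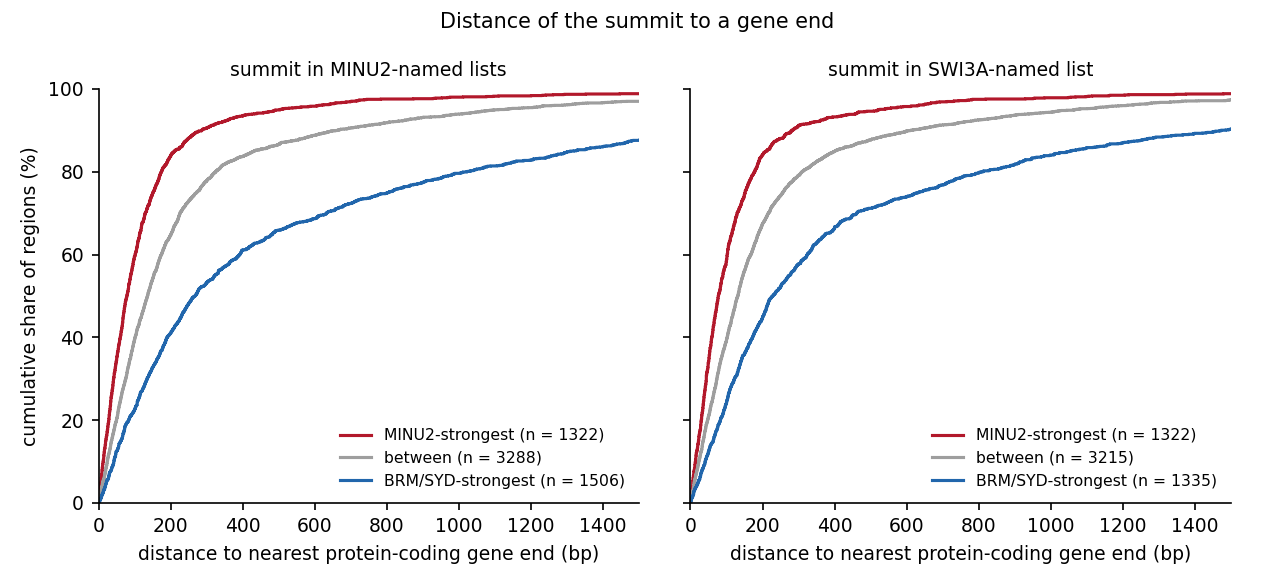
Cumulative share of regions (%) by distance in bp from the summit to the nearest end of a protein-coding gene, with the summit of the stronger MINU2-named list (left) or of the SWI3A-named list, which the rule did not use (right). In both panels the MINU2-strongest regions (red) rise fastest, reaching 84.0% and 84.2% at 200 bp, and the BRM/SYD-strongest (blue) slowest, at 41.0% and 44.9%.

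Over the chromosomes the regions were spread like the rest: 366 lay on chromosome 1, 179 on 2, 268 on 3, 192 on 4 and 317 on 5, shares of 27.7%, 13.5%, 20.3%, 14.5% and 24.0% against 26.6%, 14.8%, 19.9%, 15.1% and 23.5% of all three-ATPase regions. The 1322 regions had 1318 distinct nearest genes, of which 565 regions' genes carry a symbol other than the locus tag in the table. The median length of the nearest gene was 2496 bp, against 2469.5 bp over all.

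Transfer RNA genes, which RNA polymerase III transcribes, were more often close by. A tRNA gene ended within 500 bp of the MINU2 summit in 64 regions (4.84%, Wilson 95% interval 3.81% to 6.13%), against 118 of all 6116 (1.93%, 1.61% to 2.31%) and 8 of 1506 BRM/SYD-strongest (0.531%, 0.269% to 1.04%). At the gene AT4G14345, a tRNA for histidine by its synonym (chr4:8255162-8256104), the MINU2 summit was 7 bp from a gene end. Fold enrichment there was 5.65 and 5.72 in the MINU2-named lists, 2.00 and 1.83 in the BRM lists and 2.44 and 2.99 in the SYD lists. The 64 regions ranked at 76.9 in the SWI3A-named list and 81.7 in the BSH-named list, near the 81.8 and 80.5 of the other 1258. In SYD-N-GFP syd-5 swi3d-1 they stood at 73.5 and 66.5, against 50.4 and 53.3 for the other 1258. Genes of long non-coding RNA ended within 500 bp in 83 regions (6.28%), close to the 6.39% of all three-ATPase regions. Within 500 bp, other small RNA genes were near fewer regions than tRNA genes, though not at shares below those of all three-ATPase regions. A snoRNA gene ended within 500 bp in 15 regions (1.13%, against 0.589% of all), an snRNA gene in 4 (0.303% against 0.147%) and a miRNA gene in 6 (0.454% against 0.376%). Counted as the nearest gene, the order was not the same throughout. A miRNA gene was nearest in 1 region (0.0756% against 0.262%) and an snRNA gene in 3 (0.227% against 0.114%). A snoRNA gene was nearest in 0, against 0.114% of all, which is below the 0.227% that a count of 0 allows.

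Members of the named transcription factor families (WRKY, MYB, NAC, bHLH, ERF, TCP, GATA, ZFP) were nearest in 8 of 1322 regions (0.605%), against 102 of 6116 (1.67%), and in 45 of the 1506 BRM/SYD-strongest (2.99%). Those 8 include MYB1 (gap 67.9), NAC089 (63.9), ZIM (60.4; a GATA factor), NAC027 (59.2) and TIP (53.0; a NAC factor). Auxin genes of the IAA, ARF, PIN, SAUR and GH3 names were nearest in 0 of 1322, which allows a share of up to 0.227%, against 49 of 6116 (0.801%) and 24 of 1506 (1.59%). Auxin genes of other names were not counted, and AXR1 (gap 43.6), IAR1 (65.3) and IAR4 (33.2) were nearest genes here, as seen after the count. Cytokinin genes of the ARR, CKX and AHK names were nearest in 0, against 11 of 6116 (0.180%), which is below the 0.227% that a count of 0 allows. The cytokinin names leave out the cytokinin response factors, of which CRF7 and CRF8 were nearest genes here, a point noted after the values were seen. Homeobox genes were nearest in 1 region (0.0756%), at HB-1, against 18 of 6116 (0.294%). Light and clock genes were nearest in 1 (0.0756%), at PHYD, a phytochrome photoreceptor, against 10 of 6116 (0.164%). The light and clock count did not take in ELF4-L4, also a nearest gene here (gap 39.9). HB-1, PHYD, and below RPL24A and HSF1, are named for their counts after their values were seen.

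Among housekeeping families the counts were small. Genes named for a ribosomal protein were nearest in 4 regions (0.303%, against 0.180% of all): RPS2 (gap 85.1), RPS15 (76.4), RPL27 (50.7) and RPL24A (49.8). At RPS2 (chr3:868234-869195) fold enrichment was 5.83 and 6.19 in the MINU2-named lists, 1.67 and 1.48 in the BRM lists and 1.96 and 2.20 in the SYD lists. Heat shock genes were nearest in 2, SHD (58.1), an HSP90 chaperone, and HSF1, a heat shock factor. That share, 0.151%, was close to the 0.147% of all (9 of 6116). MIR870, at a gap of 75.2, was the nearest gene in the 1 region with a miRNA gene nearest (0.0756%, against 0.262% of all). The spliceosomal RNA gene U6-26, at 59.6, was among the 3 snRNA genes nearest (0.227%, against 0.114%). No histone gene was nearest, against 3 of 6116 (0.0491%), which is below the 0.227% that a count of 0 allows. Of the SWI/SNF subunit genes, CHC1, known also as SWP73B, was nearest in 1 region (chr5:4570532-4571303, gap 46.3). That is 0.0756%, against 3 of 6116 (0.0491%) with a subunit gene nearest. CHC1 too is named after its values were seen. The gene table names only some members of each family, so these are counts of named genes, and nearness alone assigns no region to a gene.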

How the data were processed

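The files are 26 peak lists in narrowPeak layout, called per library. Per the submitters' processing notes fastp, Bowtie2, MACS2 2.0, deepTools and ChIPseeker were used on TAIR10; roles and parameters are not given in the sources used here. The authors' deposited columns are a fold enrichment (linear ratio), −log10 p and −log10 q, a peak caller's score and a summit offset. A region absent from a list was not called there, which does not show it unbound. The lists hold no read numbers.

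Peaks were merged and scored as the report states, with Python 3.11.15, pandas 2.3.3 and SciPy 1.17.1. Classes of libraries were compared by exact two-sided permutation of the mean rank percentile. Replicates are separate libraries by label; whether they are separate cultures is not given, so p-values measure the spread between these libraries. The scripts were tested on simulated data.

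Gene names and distances come from RefSeq's table for TAIR10.1. MINU2 summits lay within 200 bp of a gene end in 63.3% to 64.2% of peaks in place and in 12.3% to 18.8% when shifted by 1000 to 5000 bp, and in 58.5% to 66.1% near the far ends of the chromosomes. No genome sequence was used, so sequence features were not analysed, and gene ends stand in for transcription starts. The regions named are the 10 with the largest gap, 3 on each side of the threshold, 5 highest for SWI3A and BSH, 3 in most and 3 in fewest lists, and up to 20 in the gene families. The members and lists were chosen with earlier results of these data known. There were 0 columns that could not be mapped.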

Additional observations from a re-analysis of the deposited data

How the results depend on the processing

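The number of MINU2-strongest regions was 1322. It was 1815 with a gap of at least 20, 845 with at least 40, 1326 with scores from fold enrichment (1206 of the 1322 shared), 1283 with an overlap of at least 50% of the shorter peak, 1397 with the regions of all 26 lists kept and 1294 to 1522 with each of the 6 lists left out. Merging no peak with a −log10 q under 10 left 59, as most BRM and SYD peaks there are weaker, and it was 55 with the MINU2 lists by label. By list name the difference in rank between the classes was 34.0 with equal list sizes and 40.6 to 52.0 under the other alternatives over all lists; with each list left out it was 45.5 to 47.6, with exact permutation p from 0.00952 to 0.0667. By label it was −18.5 to −8.19 under the alternatives and −13.6 to −8.79 with each library left out, and the exact permutation p was at least 0.175 in all of these. With the replicate number of the labels as a replicate block it was −11.7 (exact permutation p = 0.304). Whether the numbers pair libraries was checked on the differences between replicates 1 and 2 in 6 groups, whose correlations ran from −0.364 to 0.601 with 2 of 15 over 0.1. In several of these groups the lists of replicates 1 and 2 are named for different lines, so the check cannot settle whether the numbers pair libraries. No paired analysis was possible by list name because the SWI3A and BSH lists carry no number, and lists without organelle peaks alone gave no value there. The share of regions with a gene end near was 94.9% within 500 bp, 84.0% within 200 bp and 98.0% within 1000 bp; summits of each MINU2-named list, the SWI3A-named and the BSH-named list, alternatives chosen after seeing the data, gave 94.6% to 95.1%. The alternative window for sequence features was not run.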

Other observations

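Of the 2229 regions that were dropped because all 26 lists have a peak there, 75 (3.36%) had a gap of at least 30, against 21.6% of the three-ATPase regions, and 874 (39.2%) had a gap of −30 or less.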
